A study of Mus musculus with 2 samples.

Results

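The genes described here carry the first steps of T cell receptor signalling. They are the Src family kinases *Lck* and *Fyn*, the paired kinases *Zap70* and *Syk*, the adaptors *Lat* and *Lcp2*, the Tec family kinase *Txk*, the protein kinase C isoform *Prkcq* and *Themis*. These 9 genes were chosen by name for their place in the pathway, out of the 28692 genes in the deposited tables, and each was found in 1 row of them. In the files they are ENSMUSG00000000409 (*Lck*), ENSMUSG00000019843 (*Fyn*), ENSMUSG00000026117 (*Zap70*), ENSMUSG00000021457 (*Syk*), ENSMUSG00000030742 (*Lat*), ENSMUSG00000002699 (*Lcp2*), ENSMUSG00000054892 (*Txk*), ENSMUSG00000026778 (*Prkcq*) and ENSMUSG00000049109 (*Themis*). How they appear, one after the other, was followed from cells with progenitor genes to cells with T lineage commitment genes.

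In the experiment, Sca-1+ cKit+ hematopoietic stem and progenitor cells (HSPCs) were sorted from fetal livers of wild-type CD1 mouse embryos at E13.5, after magnetic removal of TER-119+ erythroid cells. They were grown in 96-well plates coated with the Notch ligand DL4 at 10 µg/mL and the adhesion molecule VCAM-1 at 2.32 µg/mL. All cells thus share the description wild-type CD1, and all cultured cells share the same coating. Single cells were captured in 2 droplet libraries, FL001 and FL002, and cells taken right after sorting, without culture, were pooled with cells from later days of culture. The sources used here do not say which of these times, or which embryos, each library holds, and there is no culture without DL4, so a time, an animal and a library cannot be told apart. Each library was therefore read alone and has no replicate. No test between groups was possible, and the intervals given below are 95% intervals that cover counting error only.

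When a receptor on a T cell binds its ligand, *Lck*, with *Fyn* as its close relative, phosphorylates the tails of the CD3 chains. *Zap70* or *Syk* then docks on these tails and phosphorylates *Lat* and *Lcp2* (SLP-76), on which the downstream enzymes gather. *Txk* belongs to the kinases that act on phospholipase C gamma, *Prkcq* (PKC-theta) carries the signal toward NF-kB, and *Themis* is a scaffold of thymocytes known for its role in selection. *Syk* is also used by B cells, myeloid cells and platelets, while *Zap70* is the form of mature T cells and NK cells.

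Cells were placed in 5 gates by UMIs (unique molecular identifiers, 1 per captured mRNA molecule) of genes outside the 9. The progenitor gate took cells with at least 2 UMIs of *Lmo2* plus *Mef2c*, regulators of stem and progenitor cells, and at most 1 of *Cd3g*. The before-Cd3g gate took cells with at most 1 UMI of *Lmo2* plus *Mef2c* and at most 2 of *Cd3g*, a CD3 chain gene. The Cd3g gate took cells with at least 3 *Cd3g* UMIs and none of *Il2ra*, the gene of CD25, and the Il2ra gate took cells with at least 1 *Il2ra* UMI. The commitment gate took cells with at least 2 UMIs of *Ptcra*, *Lef1* and *Bcl11b* together, which are the pre-T alpha chain gene and 2 transcription factor genes of committed T precursors. After filtering there were 1788 cells in FL001 and 4100 in FL002, with median depths of 7722 and 4752.5 UMIs. In gate order they held 428, 381, 327, 738 and 451 cells in FL001 and 724, 1134, 873, 1668 and 501 cells in FL002.

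The gates describe marker states and not a measured time, and a cell may meet more than 1. The Cd3g gate shared 168 cells with the commitment gate in FL001, 51.4% of the Cd3g gate, and 198 cells in FL002, 22.7% of it. Of the commitment gate, 61.0% of cells in FL001 and 58.1% in FL002 also met the Il2ra gate, whereas the progenitor and commitment gates shared 3 and 2 cells. The before-Cd3g gate held 75 and 276 cells that also met the Il2ra gate. The 6 T lineage markers *Cd3e*, *Cd3d*, *Tcf7*, *Gata3*, *Thy1* and *Rag1*, none of them at 0 in any gate, summed to 51.3 CPM (the gene's UMIs per 1000000 UMIs of the gate) in the progenitor gate and 1307 CPM in the commitment gate of FL001. The same sums were 66.6 and 1305 CPM in FL002. Of these markers, *Cd3e* and *Cd3d* are CD3 chain genes like the gate gene *Cd3g*, and so are not independent of the gates. Cells of the progenitor gate are called progenitors below by their gate alone. This gate was mixed. It also held 6 granulocyte and monocyte markers at 2109 CPM in FL001 and 1474 CPM in FL002, and 4 megakaryocyte markers at 654 and 323 CPM, against 24.3 and 85.3 CPM and 10.4 and 8.87 CPM in the commitment gate. The before-Cd3g gate was mixed as well, with the granulocyte and monocyte markers at 1077 and 616 CPM. *Ppbp* of the megakaryocyte list was at 0 in every gate but the progenitor gate. The part of other lineages in the differences below was not tested, and values without their cells are given for some genes only. Cells left out as other lineages had at least 20 UMIs of the granule genes named below, at least 10 of the megakaryocyte genes or at least 3 of *Id2*, an innate lymphoid marker. They numbered 296 in FL001 and 333 in FL002. Without them the commitment gate kept 367 of 451 cells in FL001 and 457 of 501 in FL002.

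Promoter sequences are shown for the genes on which the order turns, namely the 3 with the largest differences between gates (*Lck*, *Txk*, *Themis*) and the pair *Zap70* and *Syk*. RefSeq gave 15 windows for the 9 genes on GRCm38.p6, each of 300 bases from 250 before to 50 after an annotated start. Capitals mark matches on either strand. The Ets letters searched were CCGGAA and, as the other form, AGGAAG. Those of Runx were TGTGGT and, likewise, TGCGGT. Those of Tcf/Lef were CTTTGA and, likewise, CTTTGT. Those of Gata were AGATAA and, likewise, TGATAA. *Lck* is shown at both annotated starts. The counts come from the 3′ end of transcripts and do not show which start was used.
*Lck*, upstream start (chr4:129573592-129573891, minus strand): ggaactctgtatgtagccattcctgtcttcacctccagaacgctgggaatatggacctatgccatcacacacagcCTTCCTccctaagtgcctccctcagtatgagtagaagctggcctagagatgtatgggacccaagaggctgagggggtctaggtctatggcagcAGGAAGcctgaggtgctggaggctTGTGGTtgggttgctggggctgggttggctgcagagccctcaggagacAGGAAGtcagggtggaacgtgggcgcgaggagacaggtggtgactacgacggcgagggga
*Lck*, downstream start (chr4:129558323-129558622, minus strand): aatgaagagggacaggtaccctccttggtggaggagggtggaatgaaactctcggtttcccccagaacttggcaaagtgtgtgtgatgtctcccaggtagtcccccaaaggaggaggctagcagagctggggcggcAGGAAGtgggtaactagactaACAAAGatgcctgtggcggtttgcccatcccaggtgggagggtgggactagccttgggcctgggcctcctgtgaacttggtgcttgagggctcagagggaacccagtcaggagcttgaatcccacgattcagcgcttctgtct
*Txk*, upstream start (chr5:72752728-72753027, minus strand): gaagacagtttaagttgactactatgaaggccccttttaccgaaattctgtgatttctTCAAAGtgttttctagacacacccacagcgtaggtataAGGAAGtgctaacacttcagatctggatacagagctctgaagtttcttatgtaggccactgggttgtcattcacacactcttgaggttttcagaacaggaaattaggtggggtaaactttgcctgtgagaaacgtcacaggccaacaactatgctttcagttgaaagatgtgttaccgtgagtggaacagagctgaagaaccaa
*Themis*, upstream start (chr10:28668110-28668409, plus strand): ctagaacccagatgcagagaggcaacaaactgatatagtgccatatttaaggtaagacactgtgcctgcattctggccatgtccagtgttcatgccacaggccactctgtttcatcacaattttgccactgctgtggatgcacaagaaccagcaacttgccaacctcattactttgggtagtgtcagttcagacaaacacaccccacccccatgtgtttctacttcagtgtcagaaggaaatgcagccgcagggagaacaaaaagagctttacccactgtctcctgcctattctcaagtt
*Zap70*, most upstream start (chr1:36761548-36761847, plus strand): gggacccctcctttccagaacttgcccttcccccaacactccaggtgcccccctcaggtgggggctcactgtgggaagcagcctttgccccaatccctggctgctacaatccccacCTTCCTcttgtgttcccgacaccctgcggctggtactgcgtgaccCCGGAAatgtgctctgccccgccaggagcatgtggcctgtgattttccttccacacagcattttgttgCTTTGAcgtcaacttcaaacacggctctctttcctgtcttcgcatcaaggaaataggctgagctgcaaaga
*Syk*, upstream start (chr13:52583187-52583486, plus strand): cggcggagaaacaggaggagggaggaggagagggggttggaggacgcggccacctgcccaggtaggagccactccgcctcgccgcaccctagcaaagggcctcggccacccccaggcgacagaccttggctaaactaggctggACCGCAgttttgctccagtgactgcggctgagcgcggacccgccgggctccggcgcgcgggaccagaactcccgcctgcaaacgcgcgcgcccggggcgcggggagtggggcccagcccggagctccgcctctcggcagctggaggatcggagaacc

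The upstream *Lck* window held 3 Ets matches and 1 Runx match, and the downstream one held 1 Ets and 1 Tcf/Lef match. The upstream *Txk* window held 1 Ets and 1 Tcf/Lef match, and the most upstream *Zap70* window held 2 Ets matches and 1 Tcf/Lef match. The upstream *Syk* window held a single Runx match, and neither of the 2 overlapping *Themis* windows held any of these letters. Over all 15 windows, 8 held an Ets match, 6 a Runx match, 8 a Tcf/Lef match and 3 a Gata match. Of all 32851 mouse windows in the same table, 45.2%, 22.4%, 31.2% and 18.6% held these matches, in the same order. An E box (CANNTG) stood in 14 of the 15 windows and in 72.3% of all windows, and TATAAA stood in 0 of the 15 and in 13.6% of all. A match is a description of the letters and was not tied to binding of a factor.

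The 9 genes fell into distinct courses. *Lck* and *Lat* had UMIs in progenitors, each at its own lowest level, and were higher before *Cd3g* was detected in number. *Txk* was higher in the Cd3g gate and again in the commitment gate, and *Themis* was near 0 before the Cd3g gate and highest in the commitment gate. *Prkcq* was modestly higher toward the commitment gate, *Fyn*, *Syk* and *Lcp2* stayed within narrow ranges, and *Zap70* was rarely detected in any gate.

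**Figure D1:**
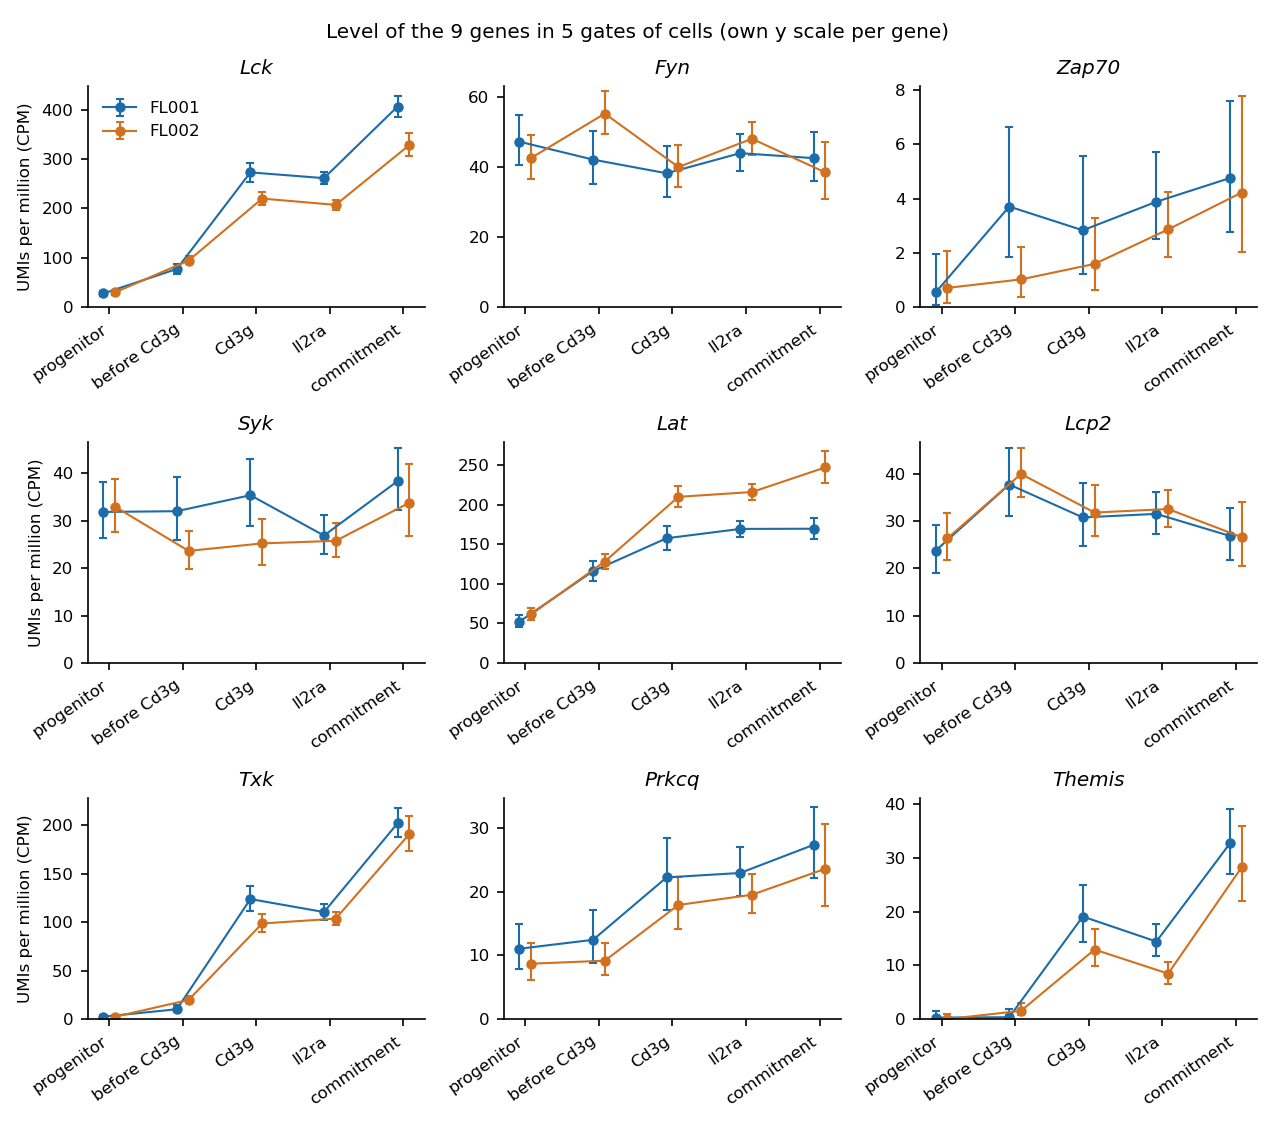
Levels of the 9 genes in CPM (y axis, a scale of its own in each panel) in the 5 gates (x axis) of FL001 (blue) and FL002 (orange), with 95% Poisson intervals as bars. *Lck*, *Lat*, *Txk* and *Themis* climb toward the commitment gate in both libraries, *Fyn*, *Syk* and *Lcp2* stay between 23.6 and 55.3 CPM, and *Zap70* stays under 5 CPM.

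Between the commitment and progenitor gates, 7 of the 9 genes reached a mean of 10 CPM over all cells. *Zap70* and *Themis* did not. Called at 2-fold after 5 CPM were added to both levels, 4 of these 7 genes were higher in the commitment gate in each library, the same 4 in both, namely *Lck*, *Lat*, *Txk* and *Prkcq*. None of the 7 was lower. Among all genes at the minimum level, 4.91% were higher and 3.79% lower in FL001 (7327 genes), 4.65% and 3.19% in FL002 (7272 genes), and 3.72% and 2.59% in both (7105 genes). Over the 9 genes the median log2 ratio was 1.01 in FL001 and 1.06 in FL002, against -0.04 and -0.01 over all genes. *Prkcq* was the median gene and lay just past the fold, while *Lat* passed at log2 values of 1.61 and 1.92. Without the minimum level *Themis* also passed, making 5 of 9. These counts had no replicate behind them and are descriptions of 2 libraries.

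**Figure D2:**
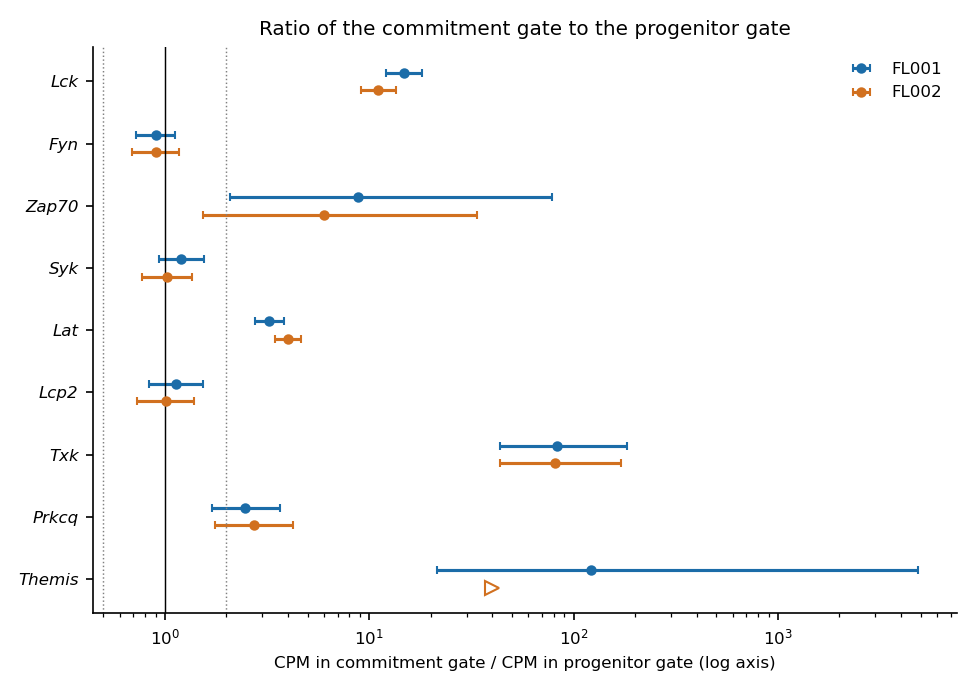
Ratio of the level in the commitment gate to that in the progenitor gate (x axis, log scale) for each gene, with 95% counting intervals, in FL001 (blue) and FL002 (orange). The open triangle is the lower bound for *Themis* in FL002, which had 0 UMIs in progenitors, the solid line is a ratio of 1 and the dotted lines are 2-fold either way. *Txk* and *Themis* lie farthest to the right, and the intervals of *Fyn*, *Syk* and *Lcp2* include 1 in both libraries.

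*Lck*, the kinase that starts receptor signalling, had levels of 27.5, 77.1, 273, 261 and 406 CPM in FL001 in gate order. The FL002 levels were 29.7, 94.2, 220, 207 and 328 CPM. It was thus higher at each step except from the Cd3g to the Il2ra gate. That ratio was 0.957 (0.878 to 1.04) in FL001 and 0.942 (0.870 to 1.02) in FL002. Commitment cells made up 51.4% of the Cd3g gate and 37.3% of the Il2ra gate in FL001, and 22.7% and 17.4% in FL002. Outside the commitment gate *Lck* was not lower in Il2ra cells. Cd3g and Il2ra cells there had 153 and 184 CPM in FL001 and 181 and 187 CPM in FL002, without an interval for the step. The before-Cd3g gate was already 2.80 times (2.21 to 3.57) the progenitor gate in FL001 and 3.18 times (2.61 to 3.89) in FL002. The commitment gate was 14.7 times (12.1 to 18.2) and 11.1 times (9.15 to 13.5) the progenitor gate. Without cells of other lineages the ratio was smaller in both libraries. *Lck* then had 36.3 CPM in the progenitor gate and 412 CPM in the commitment gate of FL001, and 32.4 and 321 CPM in FL002. With each cell thinned to 1500 UMIs, to remove differences in depth, the share of cells with an *Lck* UMI went from 3.74% (2.15 to 6.0) of progenitors to 47.7% (43.0 to 52.4) of committed cells in FL001 and from 6.08% (4.45 to 8.07) to 39.1% (34.8 to 43.5) in FL002.

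Free RNA, read from droplets of 1 to 100 UMIs, held *Lck* at 174 CPM in FL001 and 171 CPM in FL002, above the level of progenitors. Cells with at least 20 UMIs of the granule genes *Mpo*, *Elane*, *Prtn3*, *Ctsg* and *Ms4a3*, in which *Lck* is not a characteristic gene, had 7.96 CPM in 83 cells of FL001 and 5.58 CPM in 87 cells of FL002, with median depths of 11441 and 7936 UMIs. Their thinned shares with *Lck* were 2.41% (0.293 to 8.43) and 2.30% (0.280 to 8.06), wide intervals on 2 cells each that include the shares of progenitors. By level the intervals did not overlap, with progenitors at 22.4 to 33.4 and 24.7 to 35.3 CPM and granule-rich cells at 3.44 to 15.7 and 1.52 to 14.3 CPM. The groups share cells, however. The progenitor gate held 70 of the 83 granule-rich cells in FL001 and 60 of the 87 in FL002, and the before-Cd3g gate held 11 and 24. Without granule-rich and megakaryocyte cells, progenitors had *Lck* at 35.3 CPM in FL001 and 33.6 CPM in FL002. With a 10% contribution of free RNA subtracted, progenitors had *Lck* at 11.2 CPM in FL001 and 14.0 CPM in FL002. The ratio of commitment to progenitor gate was then 38.4 in FL001 and 24.7 in FL002. With gates and values at 1500 UMIs it was 56.0 (15.3 to 466) in FL001, on 2 progenitor UMIs, and 11.5 (6.65 to 21.6) in FL002. The before-Cd3g gate, at 12.1% and 13.8% of cells, lay above the granule-rich cells in both libraries.

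*Fyn*, the other Src family kinase of T cells, had 47.2, 42.1, 38.2, 43.9 and 42.5 CPM in FL001. The FL002 levels were 42.6, 55.3, 40.0, 48.1 and 38.4 CPM. Its commitment to progenitor ratio was 0.90 (0.720 to 1.13) and 0.902 (0.693 to 1.17), with 1 inside both intervals. In FL002 alone the before-Cd3g gate stood out as 1.30 times (1.08 to 1.56) the progenitor gate, where FL001 had 0.892 (0.703 to 1.13). The levels of *Lck* and *Fyn* therefore ran apart, *Lck* from its lowest level in progenitors to far above it and *Fyn* with little movement. *Fyn* overlaps the genes *Gm16364* and *Gm16365*, annotated on the opposite strand and also listed in the files. The strand setting of the counting is not given in the sources used here. *Lck*, *Lat* and *Prkcq* overlap 1, 1 and 2 genes annotated on the same strand, with 0 of them listed in the files. Whether transcripts of such genes added to the counts was not tested.

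*Zap70* had 2, 11, 8, 25 and 17 UMIs in the 5 gates of FL001, or 0.540, 3.71, 2.83, 3.88 and 4.76 CPM. In FL002 it had 3, 6, 7, 24 and 10 UMIs, or 0.706, 1.02, 1.59, 2.86 and 4.22 CPM. The commitment gate was 8.81 times (2.09 to 78.6) the progenitor gate in FL001 and 5.98 times (1.54 to 33.8) in FL002, on counts too few to fix the size. Without cells of other lineages *Zap70* had 2, 5, 4, 15 and 10 UMIs in FL001 and 2, 2, 5, 20 and 9 in FL002. Progenitor and commitment levels were then 0.799 and 3.64 CPM in FL001 and 0.573 and 4.25 CPM in FL002. Granule-rich and megakaryocyte cells held no *Zap70* UMI in any gate, so those left out were in the *Id2* cells. Even in the commitment gate only 3.77% of cells in FL001 and 2.0% in FL002 had a *Zap70* UMI at full depth. A *Zap70* UMI was found in 0 of 83 granule-rich cells in FL001, which, at 3 counts for a count of 0, allows up to 3.61% of cells with a UMI, and in 0 of 87 in FL002, which allows up to 3.45%. The exact binomial upper limits were 4.35% and 4.15%. Free RNA held *Zap70* at 3.31 CPM (3 UMIs) in FL001 and 0.890 CPM (1 UMI) in FL002, of the same order as the gates. Whether single *Zap70* UMIs mark expressing cells was therefore not resolved at this depth.

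*Syk* was found at all stages, at 31.8, 32.0, 35.4, 26.9 and 38.3 CPM in FL001. FL002 had *Syk* at 32.9, 23.6, 25.2, 25.8 and 33.8 CPM. Its commitment to progenitor ratio was 1.20 (0.934 to 1.55) in FL001 and 1.03 (0.769 to 1.36) in FL002. *Syk* was lowest in the Il2ra gate in FL001 and in the before-Cd3g gate in FL002. The commitment gate was 1.43 times (1.13 to 1.80) the Il2ra gate in FL001 and 1.31 times (1.0 to 1.70) in FL002. Within the Il2ra gate, cells that also met the commitment gate had 33.5 CPM against 23.5 CPM in the others in FL001, a ratio of 1.43 (1.04 to 1.95), and 36.7 against 23.7 CPM in FL002, a ratio of 1.55 (1.10 to 2.14). When the gates themselves were set on counts thinned to 1500 UMIs, the progenitor gate kept only 110 cells with 3 *Syk* UMIs in FL001 and 224 cells with 8 in FL002. The ratio of the commitment to the progenitor gate was then 3.0 (0.838 to 16.3) and 2.10 (0.836 to 5.72), and that of *Fyn* 1.93 (0.734 to 5.94) and 1.87 (0.765 to 4.84), all with intervals that include 1.

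Set against each other, *Syk* outnumbered *Zap70* in every gate. Over all cells there were 466 *Syk* and 41 *Zap70* UMIs in FL001 and 566 and 37 in FL002. *Syk* made up 98.3% (94.1 to 99.8), 89.6% (82.2 to 94.7), 92.6% (85.9 to 96.7), 87.4% (81.9 to 91.7) and 89.0% (82.9 to 93.4) of the 2 genes' UMIs in the gates of FL001. In FL002 the shares were 97.9% (94.0 to 99.6), 95.9% (91.2 to 98.5), 94.1% (88.2 to 97.6), 90.0% (85.5 to 93.5) and 88.9% (80.5 to 94.5). In both libraries the share was highest in progenitors and lower in the Il2ra gate, whose intervals did not overlap those of the progenitor gate. Without cells of other lineages these intervals overlapped. Progenitors then had 77 *Syk* and 2 *Zap70* UMIs and the Il2ra gate 146 and 15 in FL001. In FL002 the counts were 114 and 2 against 201 and 20. The before-Cd3g gate of FL002 then had 121 and 2, a share no lower than in progenitors. With gates and values both at 1500 UMIs the share in progenitors of FL002 was 88.9%, on 9 UMIs, and the order was lost. Against progenitors, *Syk* in the Il2ra gate was 0.844 times (0.664 to 1.08) as high in FL001 and 0.782 times (0.629 to 0.974) in FL002, while *Zap70* was 7.19 times (1.79 to 62.7) and 4.05 times (1.23 to 21) as high. These are counts of captured 3′ ends, and differences in capture between the 2 genes were not measured. The change across gates rests on 2 and 3 *Zap70* UMIs in progenitors.

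Few cells held both. At full depth 14 cells of FL001 and 4 of FL002 had UMIs of *Syk* and *Zap70*, next to 379 and 508 cells with *Syk* alone, 22 and 30 with *Zap70* alone and 1373 and 3558 with neither. At these counts most cells are blank for both genes, and the cells with 1 of the 2 cannot be read as having switched.

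**Figure D3:**
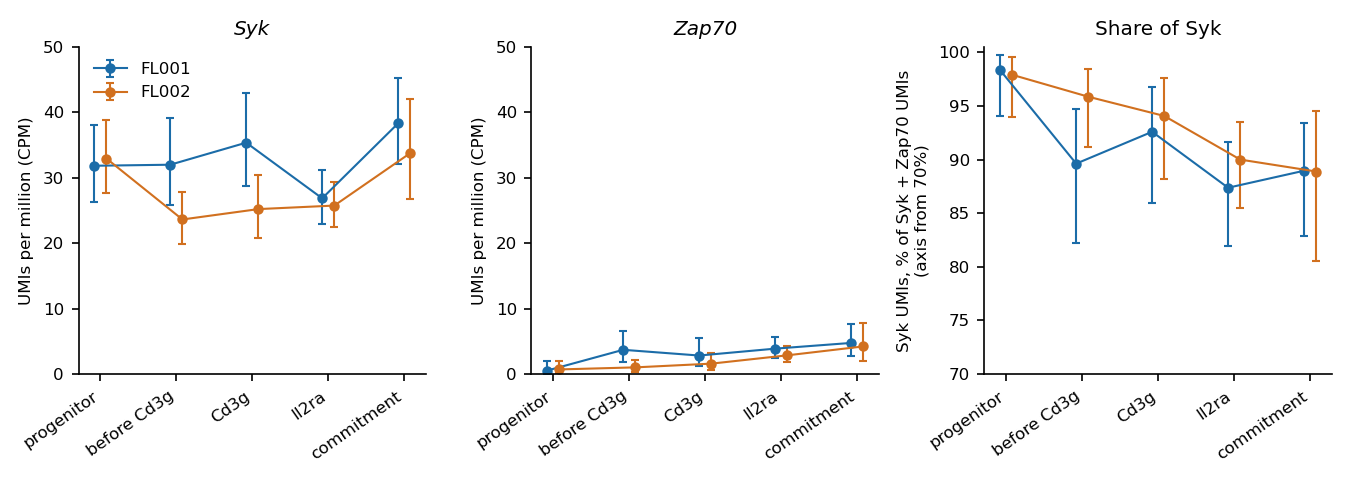
Levels of *Syk* and *Zap70* in CPM on the same scale (left and middle) and *Syk* UMIs as a percent of *Syk* plus *Zap70* UMIs, on an axis from 70% (right), in the 5 gates of FL001 (blue) and FL002 (orange). Bars are 95% Poisson intervals for levels and 95% binomial intervals for percents. *Syk* stays between 23.6 and 38.3 CPM, *Zap70* stays below 5 CPM, and the share of *Syk* goes from 98.3% and 97.9% in progenitors to 89.0% and 88.9% in the commitment gate.

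Among the adaptors, *Lat* had 52.4, 116, 158, 170 and 170 CPM in the gates of FL001. In FL002 it had 61.7, 128, 210, 216 and 247 CPM. Its largest step was the first, with the before-Cd3g gate at 2.22 times (1.86 to 2.66) the progenitor gate in FL001 and 2.08 times (1.81 to 2.40) in FL002. The Il2ra to commitment step had a ratio of 1.0 (0.905 to 1.11) in FL001 and 1.14 (1.04 to 1.26) in FL002. Over the whole course *Lat* was 3.24 times (2.76 to 3.83) and 4.01 times (3.46 to 4.66) higher. The share of cells with a *Lat* UMI at 1500 UMIs was 6.54%, 16.5%, 21.4%, 23.7% and 24.6% in FL001 and 8.98%, 17.3%, 26.2%, 28.5% and 32.7% in FL002.

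*Lat* also serves platelets, and a few megakaryocyte cells had it at high levels. Cells with at least 10 UMIs of *Pf4*, *Ppbp*, *Itga2b* and *Gp9* numbered 6 in FL001 and 7 in FL002. They had *Lat* at 372 and 949 CPM, *Syk* at 194 and 92.6 CPM, *Prkcq* at 178 and 92.6 CPM and *Lcp2* at 130 and 69.4 CPM. Of these cells 5 of FL001 and all 7 of FL002 lay in the progenitor gate, where they held 22 of 194 and 41 of 262 *Lat* UMIs. Of the *Prkcq* UMIs of the progenitor gate they held 11 of 41 in FL001 and 4 of 37 in FL002, and of the *Syk* UMIs 11 of 118 and 4 of 140. Without them *Lat* in progenitors was 47.2 and 52.5 CPM, *Prkcq* 8.22 and 7.85 CPM and *Syk* 29.3 and 32.3 CPM. Granule-rich cells held 25 of the 118 and 13 of the 140 *Syk* UMIs. Without both kinds of cells *Syk* in progenitors was 29.6 and 33.4 CPM.

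*Lcp2*, the partner of *Lat*, had its highest level in the before-Cd3g gate. It had 23.7, 37.7, 30.8, 31.5 and 26.9 CPM in FL001. FL002 had *Lcp2* at 26.4, 40.0, 31.8, 32.6 and 26.6 CPM. The before-Cd3g gate was 1.59 times (1.19 to 2.12) the progenitor gate in FL001 and 1.52 times (1.21 to 1.92) in FL002. The Cd3g gate was 0.816 times (0.609 to 1.09) the before-Cd3g gate in FL001, with 1 inside the interval, and 0.796 times (0.641 to 0.986) in FL002. The commitment gate was 1.13 times (0.838 to 1.53) and 1.01 times (0.729 to 1.39) the progenitor gate. Free RNA held *Lcp2* at 40.8 and 38.3 CPM. *Lat* and *Lcp2* thus both stood higher in the before-Cd3g gate than in progenitors. In the Cd3g gate *Lat* was higher again and *Lcp2* was not, though only FL002 had a fall of *Lcp2* beyond its interval.

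*Txk*, the Tec family kinase, went from 2.43 CPM in progenitors over 10.1, 124 and 110 CPM to 202 CPM in the commitment gate of FL001. In FL002 it had 2.35, 19.7, 98.6, 104 and 191 CPM. The before-Cd3g gate was 4.16 times (1.93 to 9.96) the progenitor gate in FL001 and 8.38 times (4.40 to 17.9) in FL002, on 9 and 10 progenitor UMIs. Part of this came from cells that also met a later gate. Without them the before-Cd3g gate kept 14 of 30 *Txk* UMIs in FL001, in 301 of 381 cells. In FL002 it kept 42 of 116, in 848 of 1134 cells. The step into the Cd3g gate was 12.3-fold (8.43 to 18.4) in FL001 and 5.0-fold (4.06 to 6.19) in FL002, and there was a further step of 1.83-fold (1.65 to 2.03) and 1.84-fold (1.64 to 2.07) from the Il2ra to the commitment gate. Between the ends the ratio was 83.2 (43.6 to 183) and 81.1 (43.7 to 170). Cd3g cells that also met the commitment gate had 201 CPM against 53.4 CPM in the others in FL001, a ratio of 3.77 (2.92 to 4.91), and 187 against 73.4 CPM in FL002, a ratio of 2.55 (2.09 to 3.09). At 1500 UMIs, 0.234% of progenitors and 25.7% of committed cells of FL001 had a *Txk* UMI, and 0.276% and 28.5% in FL002. The granule-rich cells had 2 *Txk* UMIs in each library, at 1.99 and 2.79 CPM, and in FL001 both lay in the progenitor gate. Whether the progenitor level differs from background was not resolved on these counts. With a 10% contribution of free RNA subtracted it was 0 CPM in both libraries, so the ratios between the ends have no firm denominator.

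*Prkcq* had 11.1, 12.5, 22.3, 23.0 and 27.4 CPM in FL001. FL002 had *Prkcq* at 8.71, 9.18, 17.9, 19.6 and 23.6 CPM. Between whole gates, the first step with an interval above 1 was that into the Cd3g gate. It was 1.79 times (1.17 to 2.76) the before-Cd3g gate in FL001 and 1.96 times (1.37 to 2.82) in FL002. No later step between whole gates had an interval without 1. In FL001 the step into the Cd3g gate lay in the cells that also met the commitment gate. These had 34.2 CPM against 11.5 CPM in the others, a ratio of 2.97 (1.67 to 5.53). In FL002 the 2 groups had 24.5 and 16.1 CPM, a ratio of 1.52 (0.902 to 2.50). Il2ra cells outside the commitment gate had 22.5 CPM in FL001, next to 23.9 CPM inside it, and 18.7 and 23.9 CPM in FL002. Outside the commitment gate of FL001, *Prkcq* was thus higher in Il2ra cells than in Cd3g cells, without an interval for this step. The commitment gate was 2.48 times (1.70 to 3.66) and 2.72 times (1.76 to 4.23) the progenitor gate. With a limit of 5% in place of 10% on mitochondrial UMIs, *Prkcq* no longer reached 2-fold after the 5 CPM were added, in either library, with log2 ratios of 0.88 and 0.96. In FL001 the same held without cells of other lineages, at 0.995, and after removal of the top 5% of cells by doublet score, at 0.98.

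*Themis* had 1 UMI in each of the first 2 gates of FL001, at 0.270 and 0.337 CPM, and then 19.1, 14.4 and 32.7 CPM. In FL002 it had 0 UMIs in 724 progenitors, which allows up to 0.706 CPM at 3 UMIs (0.868 CPM by the exact Poisson limit), and then 1.53, 12.9, 8.47 and 28.3 CPM. The commitment gate was 121 times (21.3 to 4831) the progenitor gate in FL001, a ratio on 1 UMI, and at least 40.1-fold higher in FL002, taking 3 UMIs over the gate as the floor. The lower limit of the counting interval used for the other ratios was 31.7 in FL002. It was lower in the Il2ra gate than in the commitment gate, by ratios of 2.27 (1.71 to 3.01) and 3.34 (2.36 to 4.73). The granule-rich cells had 0 *Themis* UMIs in both libraries, which allows up to 2.98 CPM in FL001 and 4.19 CPM in FL002, and free RNA held it at 11 and 8.90 CPM.

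Finer steps were taken along *Cd3g* and along the commitment genes. In cells with at most 1 UMI of *Lmo2* plus *Mef2c*, without *Il2ra* and with at most 1 UMI of the commitment genes, *Lck* had 63.0 CPM at 0 *Cd3g* UMIs and 159 CPM at 6 or more in FL001, and 75.3 and 185 CPM in FL002. *Lat* had 102 and 156 CPM in FL001 and 107 and 213 CPM in FL002. Both already had UMIs in cells with no *Cd3g* UMI, at levels below those of free RNA. *Txk* had 6.30 and 66.5 CPM in FL001 and 6.46 and 79.8 CPM in FL002 at the same ends. *Themis* had 0 UMIs in 224 cells and 3.69 CPM in FL001, and 0.646 CPM (2 UMIs) and 7.79 CPM in FL002.

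In Il2ra cells ordered by the commitment genes, *Themis* had 3.67 CPM at 0 UMIs of *Ptcra*, *Lef1* and *Bcl11b* and 36.8 CPM at 4 or more in FL001, and 3.94 and 38.8 CPM in FL002. *Lck* went from 167 to 456 CPM in FL001 and from 168 to 376 CPM in FL002, and *Txk* from 45.8 to 206 CPM and from 73.4 to 246 CPM. *Lat* had 159 and 166 CPM at the ends in FL001 and 205 and 235 CPM in FL002. It was highest between them, at 2 to 3 UMIs of the commitment genes, with 209 CPM (177 to 245) in FL001 and 273 CPM (240 to 309) in FL002, and these intervals lay above those at 0 UMIs. *Themis* thus stayed at lower levels along *Cd3g* than it reached along the commitment genes. Along *Cd3g* it was also higher in FL002, at 7.79 CPM (4.76 to 12.0) for 6 or more UMIs against 0.646 CPM (0.0783 to 2.33) for 0. In FL001 the intervals at these ends overlapped. *Lck* and *Txk* were higher along both, and *Lat* was higher along *Cd3g*, with a smaller difference along the commitment genes.

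**Figure D4:**
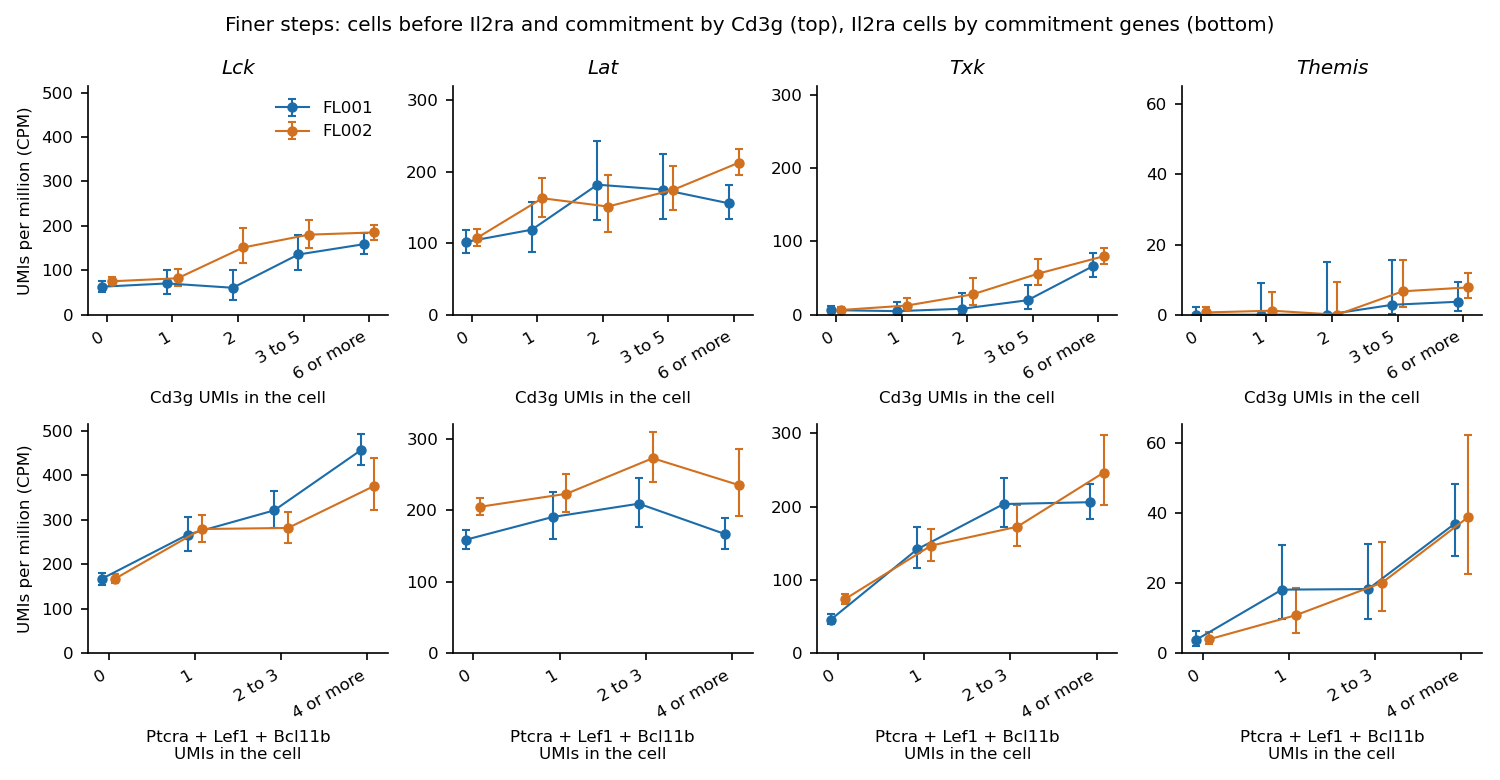
Levels of *Lck*, *Lat*, *Txk* and *Themis* in CPM (y axis, the same scale within a gene) by *Cd3g* UMIs in cells without *Il2ra* and with at most 1 UMI each of *Lmo2* plus *Mef2c* and of the commitment genes (top), and by *Ptcra* plus *Lef1* plus *Bcl11b* UMIs in Il2ra cells (bottom), in FL001 (blue) and FL002 (orange) with 95% Poisson intervals. *Themis* stays under 8 CPM along the top row and reaches 36.8 and 38.8 CPM at the end of the bottom row, while *Lat* is above 100 CPM from the start.

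In the Cd3g gate *Themis* was split the same way. Cells that also met the commitment gate had 36.4 CPM and the others 3.38 CPM in FL001, a ratio of 10.8 (4.32 to 34.6). In FL002 they had 31.6 and 7.60 CPM, a ratio of 4.16 (2.39 to 7.30). Within the commitment gate, the ratios of *Lck*, *Txk* and *Themis* by *Il2ra* had 1 inside every interval, with wide intervals for *Themis*. Cells without an *Il2ra* UMI against those with one had ratios of 0.962 (0.864 to 1.07) and 1.11 (0.964 to 1.28) for *Lck*, 0.961 (0.824 to 1.12) and 0.932 (0.769 to 1.13) for *Txk*, and 1.17 (0.792 to 1.71) and 1.19 (0.710 to 1.97) for *Themis*, in FL001 and FL002.

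The order of first appearance, taken as the first gate at 0.5 or more of a gene's highest gate level, put *Fyn*, *Syk* and *Lcp2* in the progenitor gate, *Lat* in the before-Cd3g gate and *Lck*, *Txk* and *Prkcq* in the Cd3g gate in both libraries. *Themis* was placed in the Cd3g gate in FL001 and in the commitment gate in FL002. These places rest in part on cells shared between gates. Cd3g cells outside the commitment gate had *Txk* at 53.4 CPM in FL001 and 73.4 CPM in FL002, under 0.5 of its commitment level. In FL001 the same held for *Lck* at 153 CPM, *Prkcq* at 11.5 CPM and *Themis* at 3.38 CPM. In FL002 *Lck* at 181 CPM and *Prkcq* at 16.1 CPM stayed above 0.5 of theirs. Under another rule, the first gate whose lower interval limit was over 2 times the upper limit of the progenitor gate, *Lck* came first, in the before-Cd3g gate, and *Lat* and *Themis* came in the Cd3g gate, in both libraries. *Txk* was then placed in the Cd3g gate in FL001 and in the before-Cd3g gate in FL002, and no other of the 9 genes was placed. Without cells that also met a later gate, the before-Cd3g gate of FL002 kept 42 of 116 *Txk* UMIs. The Cd3g gate of FL001 then kept 5 of 54 *Themis* UMIs. This rule was not applied again without the shared cells. The order of *Lck* and *Lat* thus depended on the rule. The places of *Lck*, *Lat*, *Txk*, *Prkcq* and *Themis* also depended, in 1 or both libraries, on cells shared between gates. In FL002 the before-Cd3g gate without such cells kept 535 of 755 *Lat* UMIs, among 4367729 UMIs in all. This level was just under 0.5 of the *Lat* level in the commitment gate. *Zap70*, with 11 UMIs or fewer in several gates, fell in the before-Cd3g gate in FL001 and in the Il2ra gate in FL002 and has no settled place. The mean number of the 9 genes found per cell at 1500 UMIs went from 0.255 in progenitors over 0.538, 1.01 and 0.985 to 1.29 in the commitment gate of FL001, and from 0.318 over 0.557, 0.939 and 0.947 to 1.25 in FL002. No cell held all 9 even at full depth, where the highest number in a cell was 8 in FL001 and 7 in FL002.

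The wider pathway was read from a list of 62 genes, of which 34 reached the minimum level in both libraries. Of these, 8 were higher by 2-fold in the commitment gate in both libraries, 3 were lower and 23 were neither, where 3.72% of all genes at the minimum level were higher in both and 2.59% lower in both. The receptor chain genes *Cd3d* and *Cd3e* had the largest log2 ratios of the 34. The progenitor gate was set in part by low *Cd3g*, another CD3 chain gene, so their ranks are not independent of the gates. They had 3.51 and 621 CPM and 1.62 and 121 CPM in progenitors and committed cells of FL001. In FL002 they were 4.94 and 475 CPM and 3.77 and 124 CPM. *Cd28*, the costimulatory receptor, had 5.13 and 38.9 CPM in FL001 and 6.35 and 42.2 CPM in FL002. Among kinases, *Prkch* (PKC-eta) had 24.8 and 92.3 CPM in FL001 and 24.0 and 108 CPM in FL002, and *Tec* had 5.67 and 21.3 CPM and 6.83 and 22.4 CPM. The B cell and myeloid Tec kinase *Btk* ran the other way, with 39.1 and 10.6 CPM and 33.7 and 8.45 CPM.

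Of the adaptors, *Fyb* (ADAP), which links the receptor to integrins, had 52.9 and 168 CPM in FL001 and 43.3 and 137 CPM in FL002, and *Sla2* had 16.2 and 62.7 CPM and 21.9 and 52.8 CPM. *Skap2* had 86.1 and 26.6 CPM in FL001 and 79.1 and 30.4 CPM in FL002, and *Dok2*, an inhibitory docking protein, had 133 and 59.6 CPM and 137 and 51.9 CPM. *Skap2*, *Dok2* and *Btk* were not read without cells of other lineages. *Rasgrp1*, which couples the receptor to Ras, was the only one of 9 downstream genes at the minimum level that was called in both libraries, with 1.08 and 26.9 CPM in FL001 and 0.706 and 23.2 CPM in FL002. None of 6 phosphatase and ubiquitin ligase genes at the minimum level was called in both libraries.

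**Figure D5:**
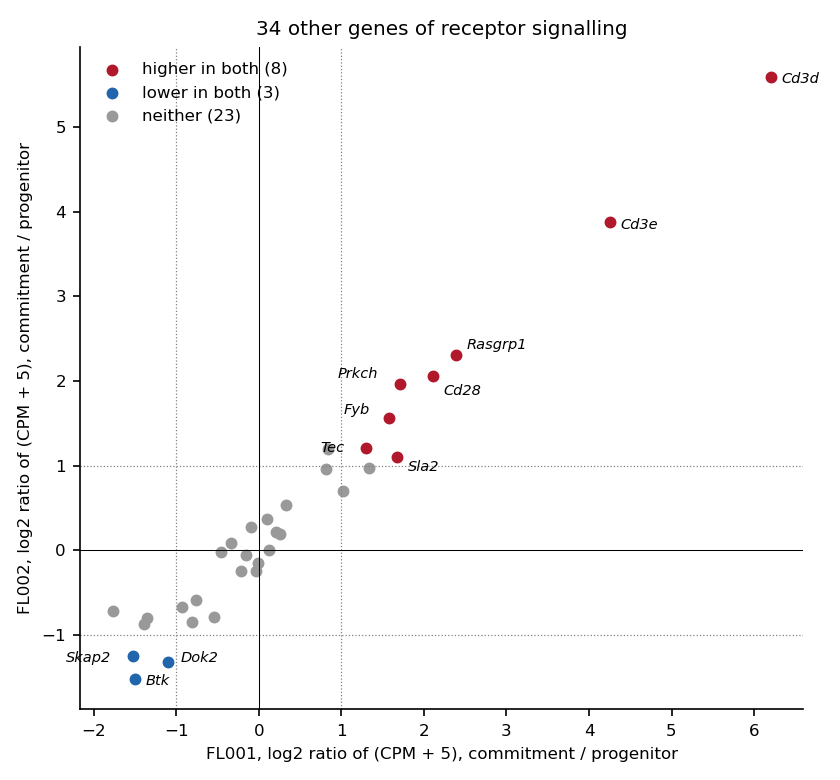
Log2 ratio of CPM plus 5, commitment over progenitor gate, in FL001 (x axis) and FL002 (y axis) for the 34 other genes of receptor signalling at the minimum level in both libraries. Red points are higher (8) and blue points lower (3) by 2-fold in both, grey points are neither (23), and dotted lines mark 2-fold. *Cd3d* and *Cd3e* lie farthest up, and *Btk*, *Skap2* and *Dok2* lie lowest.

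The genes whose course over the 10 gate levels was most like that of *Syk* were *Tollip*, *Tmem242*, *Cebpg*, *Blzf1* and *Lrrc8d*, with root mean square differences of log2(CPM + 5) from 0.0761 to 0.0863 after centring in each library. For *Zap70* they were *Atp13a3*, *2810474O19Rik*, *Nub1*, *Lta4h* and *Rnf6*, from 0.0918 to 0.0964. *Atp13a3* had 25.9 and 46.2 CPM in the progenitor and commitment gates of FL001 and 36.2 and 56.2 CPM in FL002. *Zap70* lies below the 5 CPM added to both, so its course is flattened on this scale, and the likeness is one of shape over 5 gates in each of 2 libraries, with overlapping gates.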

How the data were processed

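Per the labels, 10X Chromium single-cell cDNA libraries were made from cultured fetal liver HSPCs. The authors deposited tables of whole UMI counts for every gene and droplet barcode, neither scaled nor filtered for cells. Their processing notes name mm9, and 28339 of the 28692 Ensembl identifiers occur in GENCODE M21 (GRCm38), so the build of the counts is unclear. The aligner and annotation versions are not given in the sources used here. Total counts were 16320118 UMIs in FL001 and 22651783 in FL002.

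Barcodes with at least 1500 UMIs and 500 genes and at most 10% mitochondrial UMIs were kept, each library alone. Kept cells had 1559 to 27025 UMIs in FL001 and 1510 to 17589 in FL002. The libraries shared 10 kept barcodes, and 6 and 13 cells met no gate. Levels (CPM) are UMIs summed over a gate per 1000000, with exact Poisson intervals. Shares have exact binomial (Clopper-Pearson) intervals, and ratios have conditional binomial ones. Overlapping gates share cells, which these intervals do not allow for. UMIs tag 1 end of a molecule, so levels were not divided by gene length and are compared within a gene. Thinning drew 1500 UMIs per cell. Calls used 5 CPM added, a mean of at least 10 CPM and 2-fold. Doublets were not removed, and Scrublet scores in scanpy 1.11.5 served for an alternative. Scripts used Python 3.11.15 and SciPy 1.17.1 and were tested on simulated data. Gate genes were left out of counts over all genes.

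The genes, gates and lists were chosen with earlier results of these data known. Named are the 9 genes, the gate genes and the pathway genes past 2-fold in both libraries, up to 3 per role and direction, and the 5 genes most like *Zap70* and *Syk*. Other genes are named as markers, and *Gm16364* and *Gm16365* as overlapping *Fyn*. Promoters were matched by symbol to RefSeq on GRCm38.p6 for 9 of 9 genes. Sums of some marker lists are not reported here.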

Additional observations from a re-analysis of the deposited data

Results flagged for a closer look

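The 2 libraries had opposite directions in 3 steps where at least 1 library's counting interval left out a ratio of 1. None of these differences between the libraries was tested, and with 1 library each they have no replicate. From the progenitor to the before-Cd3g gate, *Fyn* had a log2 ratio of -0.17 in FL001 and 0.38 in FL002. Over the same step *Syk* had 0.0071 in FL001 and -0.48 in FL002. From the Cd3g to the Il2ra gate, *Syk* had -0.40 in FL001 and 0.031 in FL002. In the Cd3g gate of FL001, 61 of 100 *Syk* UMIs lay in cells that also met the commitment gate. Outside the commitment gate, Cd3g and Il2ra cells had *Syk* at 26.3 and 23.5 CPM in FL001 and 23.7 and 23.7 CPM in FL002.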

How the results depend on the processing

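The count of 4 genes past 2-fold was 3 to 6 under the alternatives, except that it was 2 in FL001 and 2 in FL002 at a fold of 4, as *Lat* and *Prkcq* then no longer passed. *Lck*, *Lat* and *Txk* were among those called under each alternative that changed the cells, gates or scaling. In FL001 *Themis* took the place of *Prkcq* without other lineages and without the highest doublet scores, and *Syk* and *Themis* joined with gates and values at 1500 UMIs. Of 110 alternative values for the share of *Syk*, 4 left the interval, all with gates and values at 1500 UMIs. They were 100% (progenitor), 84.6% (Cd3g) and 100% (commitment) in FL001 and 88.9% (progenitor) in FL002, and the share in FL002 was then no longer highest in progenitors. Of 179 values for the log2 ratios, 14 left the interval and 0 called directions turned. Of 360 values for the share of progenitor or commitment cells with a UMI of a gene, 68 left the interval of the full-depth share. No paired analysis was possible because each library is a group of its own, with 1 sample. Leaving out the megakaryocyte barcodes alone was chosen after the data were seen. Scrublet called 0.391% and 0.0488% of cells, below what a working caller gives. Depth limits *Zap70*, with 41 and 37 UMIs in all.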
